A study of Mus musculus with 12 samples.

Results

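Lrrtm and Slitrk genes are 2 small families of synapse organizers. The 10 genes described here, Lrrtm1 to Lrrtm4 and Slitrk1 to Slitrk6, were taken as the rows with these symbols in the raw count tables, which list 24525 genes. All 10 symbols were found. Lrrtm1 and Lrrtm4 were named by the study and had been chosen by it on this same comparison of genotypes, so their values are given as a description with no test. The other 8 belong to the same families, and 7 of these had enough reads to be tested.

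Both families encode single-pass membrane proteins with extracellular leucine-rich repeats, and both are known as adhesion molecules that gather synaptic machinery on the other side of the cleft. Lrrtm proteins sit on the postsynaptic side of excitatory synapses and bind presynaptic neurexins, and some also bind glypicans through heparan sulfate. Slitrk proteins bind presynaptic receptor tyrosine phosphatases of the LAR type, Ptprd, Ptprs and Ptprf. Neural stem/progenitor cells (NSPCs) form few synapses, and these genes are best known from neurons. Ythdf2 is a reader of N6-methyladenosine (m6A) in mRNA and is known to promote the decay of the mRNAs it binds.

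The libraries came from neurospheres, which are floating cultures of NSPCs, grown with EGF and bFGF from the forebrain of C57BL/6 embryos at E14.5 and collected at passage 1. There were 3 wild-type and 3 Ythdf2-/- libraries, and all are input RNA, the part of the fragmented mRNA that was not exposed to the m6A antibody. The Ythdf2-/- embryos came from intercrosses of heterozygous mice in which a floxed allele, with LoxP sites around the 5′ UTR and exon 1, had been deleted by a ubiquitously expressed Cre, so the loss was not limited to neural cells. The study calls the samples biological replicates, and the labels do not say from how many embryos a culture was grown. The matching 6 m6A-IP samples are not analysed here.

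The libraries held 11029827 to 13185778 counted reads. Ythdf2 itself had 840, 961 and 999 reads in wild type and 137, 198 and 138 in Ythdf2-/-, a log2 fold change of -2.66 ± 0.18 (SE, 3 libraries per group) with an adjusted p of 0.0547 in the quasi-likelihood test of edgeR. Of the 13112 genes tested, 0% passed an adjusted p of 0.05 in edgeR and 3.63% (476 genes) had an unadjusted p under 0.05, while DESeq2 called 31 genes. Wild-type replicate 3 stood apart from the other 5 libraries, with a first principal component of 91 against -30.6 to -6.04. Summed oligodendrocyte lineage markers reached 6050 CPM (counted reads scaled to a fixed library total, like all levels given as CPM) there and 1851 to 2262 elsewhere, although Olig1 and Olig2, the tested genes of the list with the highest mean CPM, were lowest there, at 547 and 323 CPM. Of the 12 tested genes of this list, 9 had log2 fold changes below 0 and 3 above. Their median was -2.63, and -0.30 without wild-type replicate 3. An unadjusted p under 0.05 in edgeR was reached by 6 lower and 1 higher in Ythdf2-/-. All Ythdf2-/- libraries were below all wild-type ones for 5 and above for 2, beside 4.92% and 5.24% of all genes tested. Neural progenitor markers, led by Vim and Fabp7, summed to 3887 CPM in wild-type replicate 3 and to 5581 to 7338 CPM in the others. Progenitor markers were thus present in every library. Astroglial markers summed to more CPM than they did in 5 of the 6, all but Ythdf2-/- replicate 2. These sums hold different genes and are not scaled by length, so they do not rank the cell types. Because wild-type replicate 3 stood apart, results for the members are given with and without that library. In these bulk cultures, fewer cells of a type and less RNA per cell cannot be told apart.

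The members are spread over 6 chromosomes. In GRCm38.p6, the assembly also called mm10, Lrrtm1 lies at chr6:77229210-77259915 on the plus strand, inside the span of Ctnna2 on the minus strand. Lrrtm2, at chr18:35209003-35215024, and Lrrtm3, at chr10:63928497-64090255, lie in the same way inside Ctnna1 and Ctnna3. These alpha-catenin genes link cadherins to actin, and in each of the 3 cases the host gene runs on the opposite strand and shares 0 exon bases with its guest. Lrrtm4 spans chr6:80018858-80810162. Slitrk1, Slitrk5 and Slitrk6 lie on chromosome 14, Slitrk2 and Slitrk4 on chromosome X, and Slitrk3 on chromosome 3. Each Slitrk protein is encoded by 1 coding exon. Slitrk5 shares 398 exon bases with a noncoding gene on the opposite strand, Gm30439, and since the strand setting of the counting is not given in the sources used here, its count is uncertain to that extent.

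Because Ythdf2 binds m6A, the sequence most often methylated, GGACT with the modified A at its centre, was searched on the sense strand of the longest RefSeq transcript of each member. It occurred 2.17 times per kb in Lrrtm1, more densely than in 91.3% of the 12652 genes tested that had a transcript, and 1.67 times per kb in Slitrk2 (80.2% below). Lrrtm4, at 1.10 per kb, was near the median of 1.05 per kb over those genes. Lrrtm3 and Slitrk5 had the lowest densities of the members tested, 0.519 and 0.624 per kb. The motif is common: 92.1% of the tested genes with a transcript hold it at least once. A match describes letters only, and no m6A measurement was used.

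Shown here, in GRCm38.p6, are the last matches before the stop codon in the 2 genes the study named and in 3 of the other members. Capitals mark the motif, the other letters are its 10 flanking bases on each side, and each sequence reads 5′ to 3′ along the mRNA.
Lrrtm1, chr6:77244499-77244523, plus strand: ggaacctgtgGGACTgcgggcgcaa
Lrrtm4, chr6:80023057-80023081, plus strand: aatactacgtGGACTacaaaccgac
Slitrk2, chrX:66656311-66656335, plus strand: gttttatatgGGACTcccagaaaat
Lrrtm3, chr10:63930104-63930128, minus strand: agactgagctGGACTtgagcacaat
Slitrk3, chr3:73048715-73048739, minus strand: tgggatttgtGGACTgtctctatgg
All 5 windows are coding and lie within 1 exon. The motif of Lrrtm3, the member with the fewest matches, 2 in all, is 56 bases from the end of the coding sequence, whereas in Lrrtm1 the distance is 617 bases.

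The members covered a wide range of levels. Per exon length, in CPM per kb (RPKM, from TMM-scaled counts), Slitrk5 was highest in the mean of the 6 libraries, at 8.53 ± 1.98 in wild type and 9.24 ± 1.10 in Ythdf2-/- (SD, n = 3 each). Slitrk5 is known for its role in corticostriatal circuits. Lrrtm2 followed, with much more spread and the higher mean in wild type, at 9.23 ± 7.16 and 7.99 ± 4.98 RPKM, then Slitrk2 with 6.17 ± 0.52 and 7.76 ± 0.67 and Lrrtm3 with 5.18 ± 1.86 and 6.99 ± 0.98. These 4 were the best expressed members in the mean of all libraries. Slitrk3 stood at 4.13 ± 3.51 and 3.73 ± 1.14 RPKM and Lrrtm1 at 1.85 ± 0.35 and 3.36 ± 0.95. The last tested members were Slitrk1 at 0.91 ± 0.23 and 1.06 ± 0.56, Lrrtm4 at 0.55 ± 0.28 and 1.08 ± 0.14, and Slitrk6 at 0.42 ± 0.51 and 0.21 ± 0.15.

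**Figure D1:**
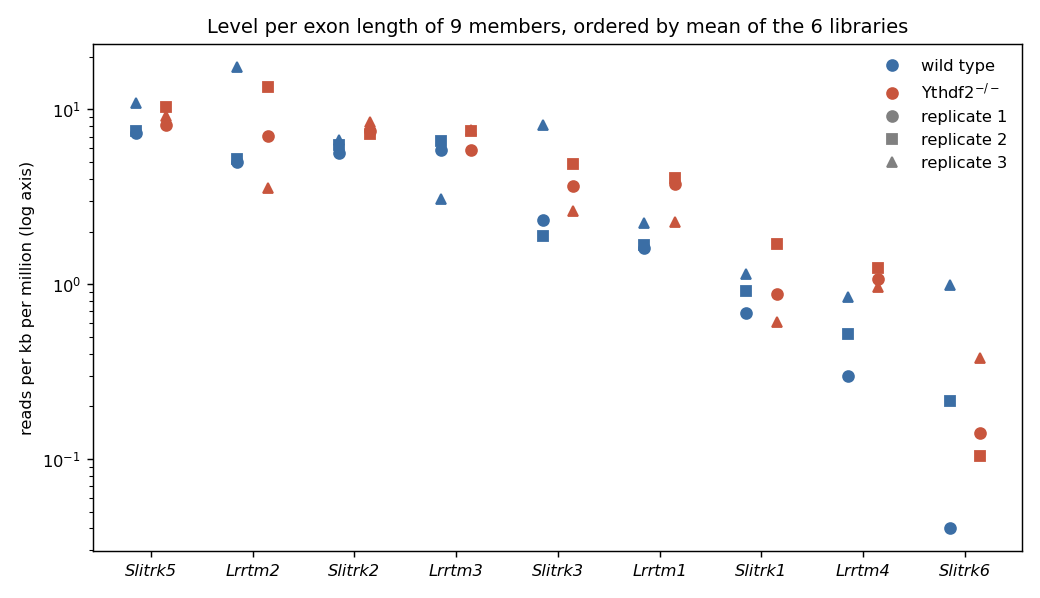
Level per exon length of 9 members in each input library, in CPM per kb (RPKM) on a log axis, ordered from the left by the mean of the 6 libraries. Blue is wild type, red is Ythdf2-/-, and the marker shape gives the replicate. Lrrtm2 spreads from 3.57 to 17.5 RPKM, whereas Slitrk2 stays between 5.62 and 8.52. Slitrk4, at 0.02 RPKM or below, is left off.

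The ranges over the 6 libraries overlapped for every pair of neighbours in this order except Slitrk6 and Slitrk4. Within libraries, Lrrtm1 was above Slitrk1 in 6 of 6, and Lrrtm3 above Slitrk3, Slitrk3 above Lrrtm1 and Lrrtm4 above Slitrk6 in 5 of 6 each, while the other overlapping neighbours changed places in 2 to 4 libraries.

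Slitrk4 was close to undetected. It had 1, 1 and 0 reads in wild type and 2, 0 and 0 in Ythdf2-/-. The limit that a count of 0 allows is 3 reads per library, which is 0.222 to 0.274 CPM, and every library was below it. No fold change is given for it.

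Within each family the composition depended on the library. Lrrtm2 and Lrrtm3 made up most of the summed Lrrtm RPKM. Lrrtm2 took 39.2%, 37.1% and 73.9% of it in wild type and 39.6%, 51.2% and 24.8% in Ythdf2-/-. Lrrtm3 took 45.8%, 47.2% and 13% in wild type and 33.1%, 28.6% and 52.8% in Ythdf2-/-. The ranges of these 2 shares overlapped between genotypes. Those of the genes the study named did not: Lrrtm1 took 9.51% to 12.6% in wild type and 15.5% to 21.3% in Ythdf2-/-, and Lrrtm4 took 2.34% to 3.68% and 4.71% to 6.64%. The study chose these 2 genes on this same comparison, so their shares are a description only. Each share also depends on the levels of the other members of its family. Slitrk5 was steadier, with 39.0% to 45.7% of the summed Slitrk RPKM in wild type and 40.1% to 43.0% in Ythdf2-/-.

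The question put to the genotypes is whether loss of Ythdf2 moved the members' mRNA. The 2 genes named by the study are described before the rest. Lrrtm1, which binds neurexins and is expressed early in forebrain development, had 52, 61 and 68 reads in wild type and 122, 151 and 78 in Ythdf2-/-. As CPM scaled by TMM, which corrects each library's total for composition, these are 4.45, 4.65 and 6.22 in wild type and 10.4, 11.2 and 6.27 in Ythdf2-/-. All 3 Ythdf2-/- libraries were above all 3 wild-type libraries, but Ythdf2-/- replicate 3 lay just above wild-type replicate 3. The fitted change was 0.86 ± 0.31 (SE) on the log2 scale, and 1.03 ± 0.30 without wild-type replicate 3, in a range of 0.72 to 1.08 when any 1 library was left out. Its host gene Ctnna2 followed another order, with 32.3, 37.7 and 129 CPM in wild type and 34.6, 63.8 and 28.2 CPM in Ythdf2-/-.

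Lrrtm4, which binds glypicans as well as neurexins, was lower still. It had 17, 33 and 45 reads in wild type and 61, 81 and 58 in Ythdf2-/-, or 1.45, 2.52 and 4.11 CPM against 5.20, 5.99 and 4.66 CPM. The libraries of the genotypes did not overlap, and the closest were wild-type replicate 3 and Ythdf2-/- replicate 3. Its log2 fold change was 0.97 ± 0.41 (SE), and 1.40 ± 0.33 without wild-type replicate 3. Over the 6 fits that each left out 1 library it ran from 0.68 to 1.40. Since the study chose Lrrtm1 and Lrrtm4 on these samples, these values are no independent evidence of a direction.

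**Figure D2:**
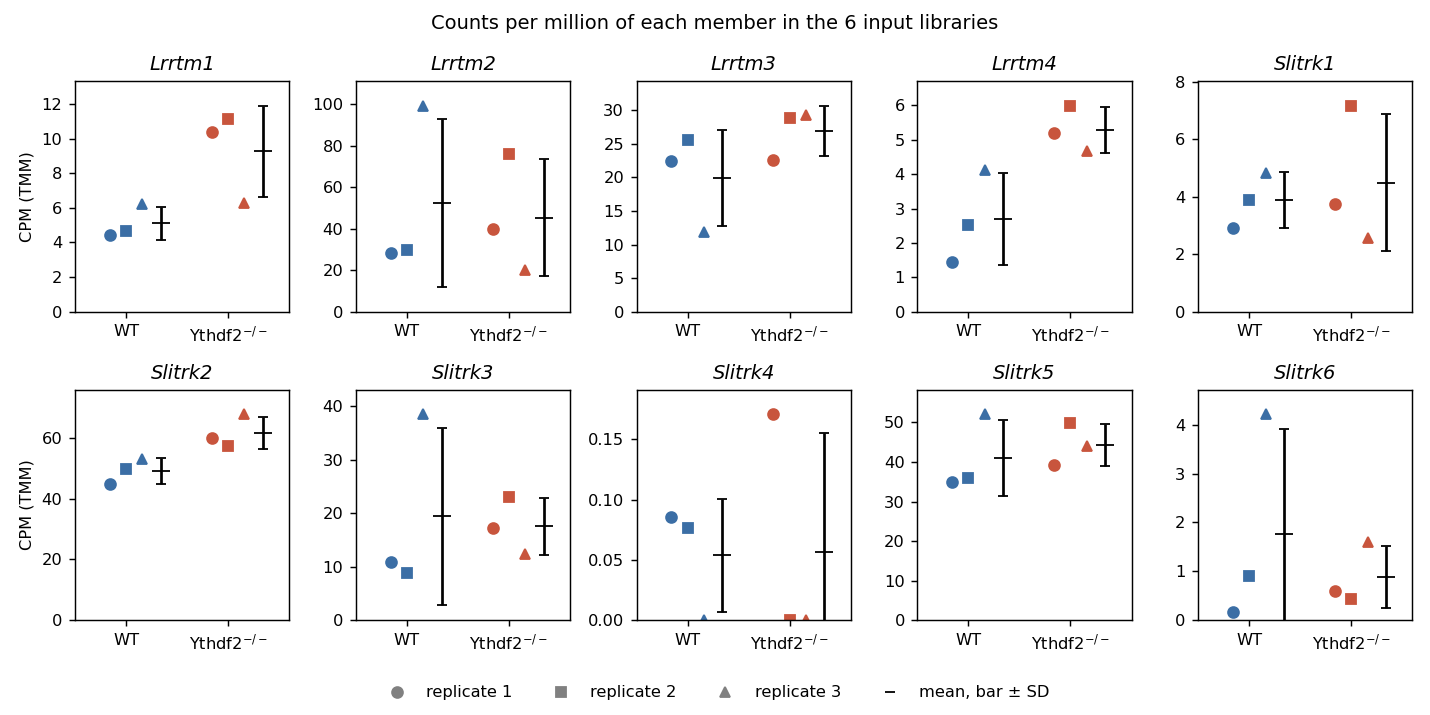
CPM (TMM-scaled) of each member in the 6 input libraries, 1 panel per gene with its own axis from 0. Points are libraries, shaped by replicate, with wild type in blue and Ythdf2-/- in red, and black bars give the mean ± SD of 3 libraries, clipped at 0. Lrrtm1, Lrrtm4 and Slitrk2 are the genes with all red points above all blue ones, and the wild-type triangle is the highest point for Lrrtm2, Slitrk3, Slitrk5 and Slitrk6.

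Among the 7 tested members that the study did not name, 0 passed an adjusted p of 0.05 in edgeR or in any of the 15 other fits to the counts, DESeq2 and limma-voom included, with Slitrk6 left untested by the 1 fit that asked for 10 reads in every library. With edgeR, the adjusted p of each was 0.999. Their log2 fold changes were above 0 for 4 and below 0 for 3, with a median of 0.12, and the median over all 13112 genes was -0.01. For all 9 tested members the median was 0.22, with 6 above 0 and 3 below, a figure that contains the 2 genes chosen on this contrast.

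Slitrk2 had the smallest standard error of the tested members. It is X-linked, and its protein is known to promote excitatory synapses. It had 522, 650 and 578 reads in wild type and 701, 776 and 841 in Ythdf2-/-, that is, 44.6, 49.6 and 52.8 CPM against 59.7, 57.4 and 67.6 CPM. All Ythdf2-/- libraries were above all wild-type libraries, the nearest values being 52.8 and 57.4 CPM. This gave a log2 fold change of 0.33 ± 0.13 (SE), with an unadjusted p of 0.0455 in edgeR and an adjusted p of 0.999. Its sign held when any 1 library was left out, with log2 fold changes from 0.26 to 0.39. More than 3 reads in sum on 4 Y-linked genes were found in 2 wild-type libraries and 1 Ythdf2-/- library. The groups were thus not matched for these reads, which mark male cells. With a term for them, the log2 fold change of Slitrk2 was 0.335 ± 0.136 (SE, adjusted p of 0.455 in edgeR).

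For scale, 5.24% of the 13112 genes tested had all 3 Ythdf2-/- libraries above all 3 wild-type ones, and 4.92% had all below. The members counted 3 above, Lrrtm1, Lrrtm4 and Slitrk2, and 0 below, and 1 of the 7 that the study did not name was above. These 7 were also gathered with earlier results of these data known, so their count is a description. At an unadjusted p under 0.05 with Ythdf2-/- higher, the background was 1.81%, and Slitrk2 was the single case among those 7.

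Lrrtm3, which lies inside Ctnna3, had 263, 335 and 130 reads in wild type and 265, 390 and 365 in Ythdf2-/-. These are 22.5, 25.5 and 11.9 CPM against 22.6, 28.8 and 29.3 CPM. Wild-type replicate 3 was the lowest, whereas it was the highest wild-type library for every other tested member, and replicate 1 of each genotype was alike. The log2 fold change of 0.43 ± 0.30 (SE, adjusted p of 0.999 in edgeR) became 0.17 ± 0.16 without that library. Ctnna3 itself was at the edge of detection, with no read in Ythdf2-/- and at most 0.171 CPM in wild type.

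Lrrtm2, whose protein binds neurexins and helps to hold AMPA receptors at excitatory synapses, spread most among the well-expressed members. It had 331, 387 and 1085 reads in wild type and 467, 1027 and 252 in Ythdf2-/-, or 28.3, 29.5 and 99.2 CPM against 39.8, 76.0 and 20.3 CPM. The highest library was 4.90 times the lowest, and each genotype held 1 high library. Between genotypes the log2 fold change was -0.21 ± 0.66 (SE, adjusted p of 0.999 in edgeR), and 0.65 ± 0.51 without wild-type replicate 3 (adjusted p of 0.555). The sign also turned, to 0.15, without Ythdf2-/- replicate 3. Ctnna1, which contains it, was higher in level and steadier, at 233 to 329 CPM over the 6 libraries.

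Slitrk3, known for organizing inhibitory synapses through Ptprd, had the same 3 libraries on top. It had 128, 117 and 421 reads in wild type and 202, 312 and 154 in Ythdf2-/-, that is, 10.9, 8.92 and 38.5 CPM against 17.2, 23.1 and 12.4 CPM. Wild-type replicate 3 was above every other library, and wild-type replicates 1 and 2 were below all 3 Ythdf2-/- libraries. The log2 fold change of -0.15 ± 0.60 (SE, adjusted p of 0.999 in edgeR) turned to 0.82 ± 0.29 without wild-type replicate 3, with an adjusted p of 0.252.

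The libraries high in Lrrtm2 and Slitrk3 were also high in some marker lists. Summed neuronal markers were 1781, 1801 and 2975 CPM in wild type and 1858, 2185 and 1911 CPM in Ythdf2-/-. Wild-type replicate 3 and Ythdf2-/- replicate 2, the highest libraries for Lrrtm2, were also the highest for this list. Its sum was led by Map2, at 1023 to 1439 CPM, and Mapt, at 222 to 510 CPM, both highest in the same 2 libraries. The order of the sum thus rests largely on these 2 genes. Oligodendrocyte lineage markers put the same 2 libraries on top by their sum, at 6050 and 2262 CPM, with the other 4 at 1851 to 2034 CPM, but Olig1 and Olig2 were highest in Ythdf2-/- replicate 3, at 1249 and 513 CPM. Astroglial markers did not: their sum was highest in wild-type replicate 3, at 16583 CPM, and lowest in Ythdf2-/- replicate 2, at 5241 CPM. By gene, 4 of the 15 tested neuronal markers had log2 fold changes above 0 and 11 below. Their median was -0.21, and 0.14 without wild-type replicate 3. For 2 of them, all Ythdf2-/- libraries were below all wild-type ones, beside 4.92% of all genes tested. Oligodendrocyte lineage markers had 3 above 0 and 9 below, and astroglial markers had 6 above and 6 below. Whether the make-up of the cultures set the levels of Lrrtm2 and Slitrk3 was not tested.

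**Figure D3:**
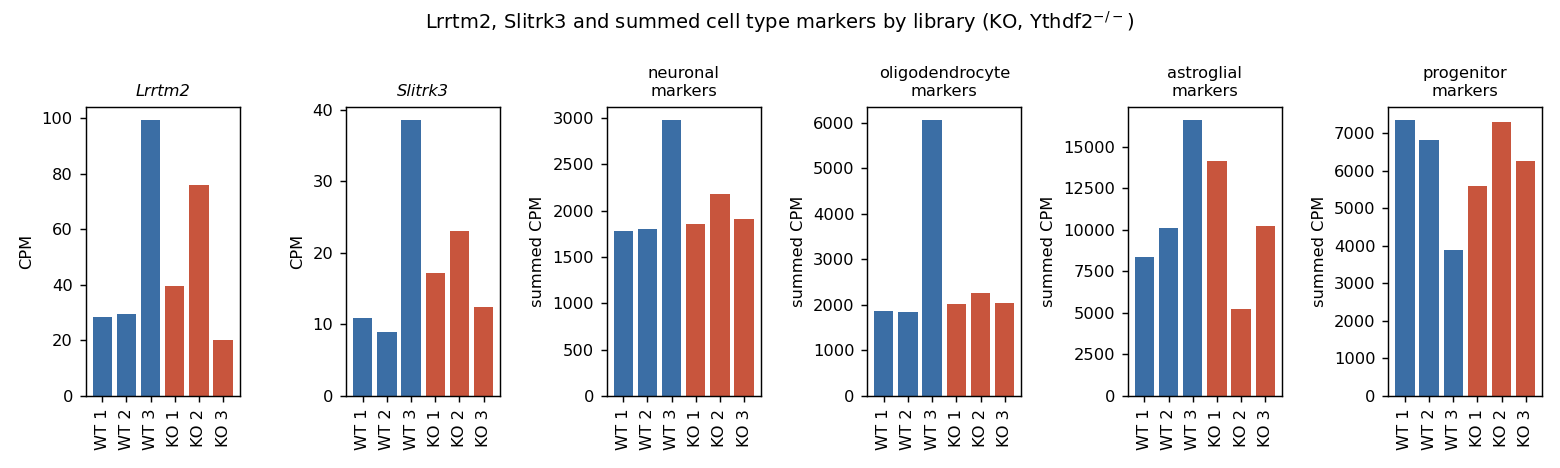
CPM of Lrrtm2 and Slitrk3 and summed CPM of neuronal (16 genes), oligodendrocyte lineage (14), astroglial (12) and neural progenitor (12) markers in each library, as bars from 0, with wild type in blue and Ythdf2-/- (KO) in red. Wild-type replicate 3 is the highest bar in every panel but the last, where it is the lowest, at 3887 CPM.

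Microglia and macrophage markers stayed between 5.88 and 9.0 CPM in sum. They were led by Cd68, with 27 to 70 reads per library, and Mpeg1, with 26 to 38, while Ptprc, C1qa and C1qb had 0 reads in all libraries. Endothelial and mesenchymal markers summed to 33.2 CPM in wild-type replicate 3, nearly all of it Pdgfrb at 31.7 CPM, and to 1.70 to 5.96 CPM elsewhere.

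Slitrk5 had 410, 472 and 569 reads in wild type and 462, 675 and 547 in Ythdf2-/-, which is 35.1, 36.0 and 52.0 CPM against 39.4, 49.9 and 44.0 CPM. Wild-type replicate 3 was the highest, and the Ythdf2-/- libraries all lay between it and the other wild-type libraries. The log2 fold change was 0.12 ± 0.20 (SE, adjusted p of 0.999 in edgeR), and 0.32 ± 0.13 without that library (adjusted p of 0.293). It fell to 0.016 and 0.031 when replicate 1 or 2 of wild type was left out, and to 0.037 when the second Ythdf2-/- library was.

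Slitrk1, a gene linked to Tourette syndrome in people, was low, with 34, 51 and 53 reads in wild type and 44, 97 and 32 in Ythdf2-/-. In CPM these are 2.91, 3.89 and 4.85 against 3.75, 7.17 and 2.57, and the Ythdf2-/- libraries lay on both sides of the wild-type range. Its log2 fold change was 0.22 ± 0.44 (SE, adjusted p of 0.999 in edgeR), and it became -0.28 without Ythdf2-/- replicate 2.

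Slitrk6, best known from the inner ear, was the lowest member tested. It had 2, 12 and 46 reads in wild type and 7, 6 and 20 in Ythdf2-/-, or 0.171, 0.915 and 4.21 CPM against 0.596, 0.444 and 1.61 CPM. Wild-type replicate 3 stood above every other library, and the genotypes overlapped. The log2 fold change of -0.98 ± 1.06 (SE, adjusted p of 0.999 in edgeR) became 0.65 ± 0.85 without it, and neither differed from 0 beyond its error.

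**Figure D4:**
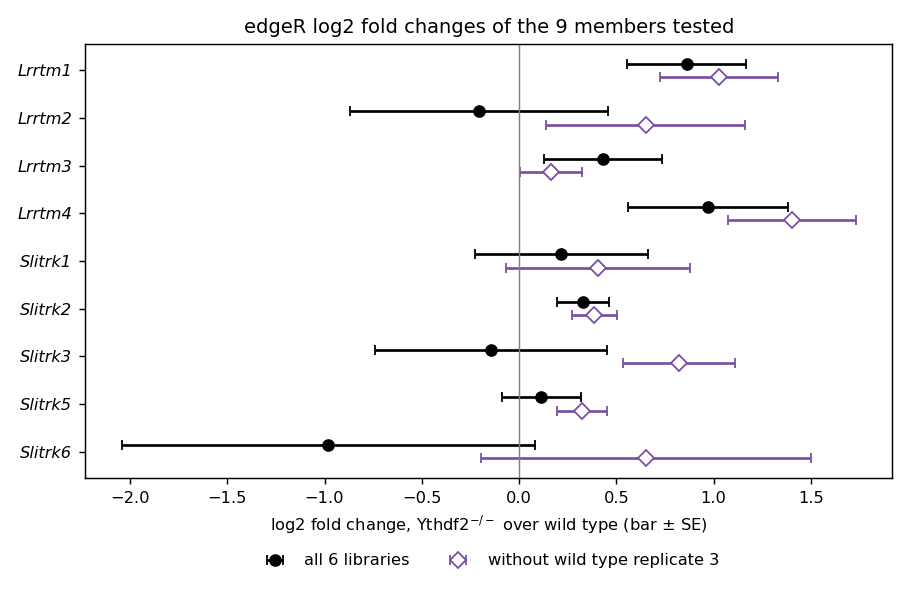
Log2 fold changes from edgeR, Ythdf2-/- over wild type, for the 9 members tested, with bars of ± 1 SE. Black circles use all 6 libraries, and open diamonds leave out wild-type replicate 3. Lrrtm2, Slitrk3 and Slitrk6 cross from below 0 (-0.21, -0.15 and -0.98) to above 0 (0.65, 0.82 and 0.65), and Lrrtm3 moves down from 0.43 to 0.17.

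Without wild-type replicate 3, all 9 tested members had log2 fold changes above 0, with a median of 0.65 (0.41 for the 7 not named by the study), and the median over all genes tested in that fit was 0.01. None of the 7 passed an adjusted p of 0.05 in it. Wild-type replicate 3 was the highest wild-type library for every tested member but Lrrtm3, so leaving it out necessarily raised the fold changes of the others. All 3 Ythdf2-/- libraries were then above both remaining wild-type libraries for 5 members, 3 of them among the 7 (Slitrk2, Slitrk3 and Slitrk5), beside 18.9% of all genes tested.

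The presynaptic partners were counted in the fit to all 6 libraries, as a list of 12 neurexins, LAR-type phosphatases and glypicans put together with earlier results of these data known. All 12 were tested: 10 had log2 fold changes above 0 and 2 below, with a median of 0.47, whereas 48.1% of all genes tested were above 0, and 0 partners passed an adjusted p of 0.05 in edgeR. An unadjusted p under 0.05 was reached by 3, all higher in Ythdf2-/-, beside 1.81% of all genes tested. These were Ptprd, the receptor of Slitrk3, at 30.4 ± 7.4 CPM in wild type and 50.8 ± 11.4 in Ythdf2-/- (SD, n = 3 each), Nrxn3 at 30.3 ± 3.9 and 48.0 ± 14.6 CPM, and the glypican gene Gpc6 at 31.0 ± 4.6 and 47.0 ± 12.8 CPM. Ptprd and Nrxn3 were picked by the study from these libraries, so their direction is not independent. Among the more abundant partners, Ptprs had a log2 fold change of 0.03 ± 0.37 (SE) and Gpc1 one of 0.52 ± 0.30.

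Postsynaptic scaffolds and receptors, 22 genes with 21 tested, had 13 log2 fold changes above 0 and 8 below, a median of 0.09 and 0 at an unadjusted p under 0.05. The AMPA receptor gene Gria2 was led by wild-type replicate 3, at 710 CPM against 206 to 435 CPM in the other libraries. Gria4 stood at 81.3 ± 20.6 CPM in wild type and 142 ± 55.8 CPM in Ythdf2-/-. Gphn, which encodes the inhibitory scaffold gephyrin, stood at 110 ± 5.0 and 101 ± 10.8 CPM.

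Other leucine-rich repeat adhesion genes, 21 with 18 tested, were split evenly, 9 above 0 and 9 below, with a median of 0.04, which became 0.50 without wild-type replicate 3. An unadjusted p under 0.05 was reached by 5, all higher in Ythdf2-/- and all with libraries that did not overlap between genotypes, beside 1.81% and 5.24% of all genes tested, and 0 passed an adjusted p of 0.05 in edgeR. Elfn1, a postsynaptic partner of metabotropic glutamate receptors, stood at 44.1 ± 4.5 CPM in wild type and 85.5 ± 17.6 CPM in Ythdf2-/- (SD, n = 3 each). Lrrc4c, also called NGL-1, stood at 45.3 ± 7.1 and 61.1 ± 5.9 CPM and Lingo4 at 6.64 ± 0.92 and 13.3 ± 5.9 CPM. Flrt2 and Flrt3, which the study picked from these libraries, stood at 32.2 ± 7.7 and 68.2 ± 22.4 CPM and at 13.5 ± 1.6 and 21.3 ± 3.9 CPM. The most abundant of this list, Lrrc4b, had a log2 fold change of 0.36 ± 0.23 (SE), and Ntrk3, the neurotrophin-3 receptor, had 0.61 ± 0.26.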

How the data were processed

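RNA-seq input libraries of 3 wild-type and 3 Ythdf2-/- neurosphere cultures were analysed, with groups and replicate numbers from the labels. Reads from strand-specific libraries were mapped by the authors with TopHat (mm10), and the deposited counts are unnormalized read totals for each gene. The submitters' processing notes list featureCounts, Bowtie2 2.2.9 and RSEM 1.2.15. The strand setting, and the treatment of reads on several genes, are not given in the sources used here. The authors also deposited RSEM tables of expected counts, TPM and FPKM per library, whereas their methods name RPKM from Cuffnorm. In these tables the deposited expected counts summed to 1.97% to 2.40% of the raw counts, so FPKM served as an alternative only and the deposited TPM values were not used for any result.

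From the counts, 13112 genes passing filterByExpr (minimum count 10) were tested with edgeR 4.0.16 (TMM, robust glmQLFit, glmQLFTest, genotype as the only term, Benjamini-Hochberg over all genes) in R 4.3.3. The SE given with an edgeR log2 fold change is its size divided by the square root of the quasi-likelihood F statistic. It is thus not a separately estimated error. DESeq2 1.42.0 and limma 3.58.1 were alternatives. CPM used TMM factors of 0.988 to 1.03, and levels per length divided CPM by the summed exon length in the RefSeq annotation of GRCm38.p6, from which the sequences were also read. The tests were tried on simulated data. For 1 gene, exact permutation of 3 against 3 libraries gives no p under 0.1, so none was run. The p-values cover the spread between these cultures, and limits from a count of 0 cover counting error only. Tables were handled with Python 3.11.15 and pandas 2.3.3.

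The members and gene lists were chosen with earlier results of these data known. Besides the members, the genes named were Ythdf2, the genes containing a member, the 3 most abundant of each other list with any at an unadjusted p under 0.05, and the 2 most abundant of each marker list, of which some are given by the list's sum only. Ptprc, C1qa and C1qb were named after their values were seen. Some genes that this rule names are not reported here. Alternatives changed the normalization, the filter, the test, a replicate block, a term for reads on 4 Y-linked genes, the prior count or the pseudocount, and left out each library in turn. Counting non-overlapping members without wild-type replicate 3 was added after seeing the data.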

Additional observations from a re-analysis of the deposited data

How the results depend on the processing

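For the 7 tested members not named by the study, 0 calls were made in the 15 alternative fits to the counts, 1 of which (10 reads in every library) left out Slitrk6. Across these fits the directions of Lrrtm1, Lrrtm3, Lrrtm4, Slitrk2 and Slitrk5 held, though Lrrtm3 came down to 0.029 with quality weights. Limma-voom with quality weights, which gave wild-type replicate 3 a weight of 0.0901, turned Lrrtm2 to 0.34, Slitrk3 to 0.75 and Slitrk6 to 0.49, and its lowest adjusted p among the 7 was 0.0566 (Slitrk2). Plain limma-voom turned Slitrk3 to 0.17, and the term for Y-linked reads turned Slitrk1 to -0.10. The Y-linked term also lowered Lrrtm1 from 0.86 to 0.63 and Lrrtm2 from -0.21 to -0.65, and raised Lrrtm3 from 0.43 to 0.69. Leaving out 1 library gave Lrrtm2 -0.78 to 0.65, Slitrk3 -0.49 to 0.82, Slitrk6 -1.73 to 0.65 and Slitrk1 -0.28 to 0.50. Leaving out Ythdf2-/- replicate 3 turned Lrrtm2 to 0.15 and Slitrk3 to 0.05. The median of the 9 tested members ran from 0.037 to 0.65 over the 6 fits without 1 library, the highest without wild-type replicate 3, and the members without overlap rose from 3 to 5 there, while the share of all genes with every Ythdf2-/- library above wild type rose from 5.24% to 18.9%.

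The labels do not say whether a replicate number pairs a wild-type with a Ythdf2-/- culture. Same-numbered libraries' deviations from their group means correlated at -0.25, -0.24 and -0.39. Deviations within a group cancel out and wild-type replicate 3 stood far apart, so these values cannot decide on pairing. With the replicate block, 0 genes were called, Ythdf2 was at -2.66 (adjusted p of 0.9999), the members' median was 0.17 and Slitrk3 was at 0.17.

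Genes called over the whole table numbered 1 with DESeq2 size factors, 1 with no filter, 1 with at least 10 reads in every library, 31 with the DESeq2 test, 632 with limma-voom quality weights, 13 with the Y-linked term, and 0 to 2 when 1 library was left out. Ythdf2 passed an adjusted p of 0.05 with DESeq2 size factors (-2.67), no filter (-2.64), 10 reads in every library (-2.66), the DESeq2 test (-2.67), quality weights (-2.61), the Y-linked term (-2.75) and without wild-type replicate 3, with -2.78 to -2.54 over the fits that leave out 1 library.

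The deposited FPKM tables rest on 0 to 11 expected counts per member and library and list Lrrtm4, Slitrk3 and Slitrk4 at 0, and they hold 0 or 1 for Ythdf2. With pseudocounts of 1 and 0.1 they gave, on the log2(FPKM + pseudocount) scale, -0.37 and -0.42 for Lrrtm1, 0.39 and 0.62 for Lrrtm2, -0.64 and -2.28 for Lrrtm3, -0.32 and -1.14 for Slitrk1, -0.54 and -2.03 for Slitrk2, 0.66 and 1.63 for Slitrk5, 0.31 and 1.11 for Slitrk6, and 0.32 and 1.13 for Ythdf2. These tables do not show the loss of Ythdf2 reads that the raw counts show, and the cause was not tested. Depth limits Slitrk4, Slitrk6 and Lrrtm4 most.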
